A study of Mus musculus with 16 samples.

Results

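The comparison described here is between colon that lacks NCoR1 in its epithelium and colon that keeps it, both under dextran sulfate sodium (DSS), a polysaccharide that injures the colon lining. DIEC DSS libraries come from mice whose NCoR1 is deleted in intestinal epithelial cells (genotype label ko) and F/F DSS libraries from NCoR1 F/F mice (genotype label wild type). Both groups were C57BL/6 mice of 8 weeks that were given 2.5% DSS and sampled on day 3. The members are the 8 DSS libraries of the 16 in the series, 4 DIEC DSS and 4 F/F DSS, put in their groups by their labels, and all genes of the table were compared. The other 8 libraries, 4 DIEC naive and 4 F/F naive, are colon of the same genotypes on water. Each library holds the combined RNA of 3 mice; 12 mice make up a group, and replicate error here is the variation among such pools. The labels used here do not name the Cre line, and the tissue was whole colon with its immune, muscle and stromal cells.

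NCoR1 is a corepressor: it binds nuclear receptors that lack an activating ligand and brings histone deacetylase 3 to their target genes, which keeps those genes low. The receptors it serves include the liver X receptors, which respond to oxysterols and drive sterol export, the peroxisome proliferator-activated receptors, which drive fatty acid oxidation, the vitamin D receptor and the REV-ERB receptors of the clock. DSS colitis begins with loss of the epithelial barrier and of cycling crypt cells and goes on to neutrophil recruitment.

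Deposited values are reads per gene scaled to a common total per library, and a gene is called here where its adjusted p under limma is below 0.05. On the deposited scale 599 of the 18267 genes tested were higher in DIEC DSS colon (3.28%) and 4747 were lower (26%), 29.3% in all. Of these, 1.57% of genes tested were higher and 6.87% lower by a fold of at least 1.5. The balance of these calls differed between scalings. After TMM rescaling, which sets the bulk of genes equal between libraries, 1192 genes were higher (6.53%) and 1317 were lower (7.21%). The median log2 change over all genes was -0.02 after TMM and -0.20 as deposited. The median over genes of the shift from deposited to TMM was 0.19. Every gene called higher as deposited and every gene called lower after TMM was called under both scalings in the same direction, 599 higher (3.28%) and 1317 lower (7.21%). A further 3430 genes were called lower on the deposited scale only, and 593 higher after TMM only. Of the genes called under both, 456 of 599 and 1229 of 1317 had no overlap between their 4 DIEC DSS and 4 F/F DSS libraries; over all genes, 566 (3.1%) had every DIEC DSS library above and 3995 (21.9%) below every F/F DSS library on the deposited scale. In the authors' deposited table, 831 genes are higher and 672 lower, with a median log2 fold change of -0.01.

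A few abundant genes took more of each DIEC DSS library. The 200 most abundant genes, by their mean over all 16 libraries, took 32.1 to 35.0% of each DIEC DSS library. They took 28.0 to 29.4% of each F/F DSS library, so that the groups did not overlap. Lypd8, a secreted protein of the colon surface and the top gene in all 8, took 2.56 to 3.49% of DIEC DSS and 1.68 to 2.33% of F/F DSS libraries. The 20 genes with the largest gains held 44.5% of all gains, and the 200 with the largest gains held 76.4%; Lypd8, Rn45s, Dmbt1, Prdx6, Muc13, Zg16 and Clca1 were among them. Rn45s, a ribosomal RNA precursor, stood at 520787 in DIEC DSS 3 but at 31899 to 53006 in the other 3 DIEC DSS libraries and 27958 to 48717 in F/F DSS. That library also stood apart on the second principal component of all 16 libraries (11.3% of variance), at -60.4 against -17.2 to 8.64 in the rest of its group. Reads on genes numbered 22883415 to 30342046 in DIEC DSS and 26363572 to 34733832 in F/F DSS libraries. Below, counts of list members are those called under both scalings unless a scale is named. Beside each such count stand the shares of all genes tested, 3.28% higher and 7.21% lower. Log2 changes are on the deposited scale as log2(value + 1), with SE, and the median shift given above applies to them.

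**Figure D1:**
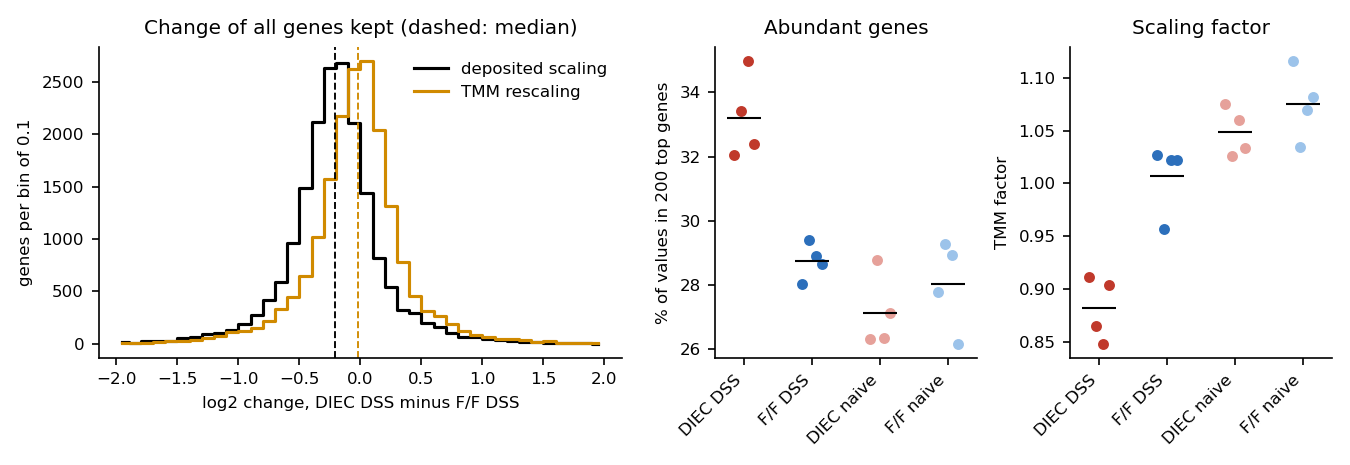
Left, number of genes per bin of log2 change between DIEC DSS and F/F DSS colon under the deposited scaling and after TMM rescaling, with dashed lines at the medians. Middle and right, share of each library's values in the 200 genes with the highest mean over all 16 libraries (%) and its TMM factor, a point per library and a bar at the group mean. The 4 DIEC DSS libraries hold the highest shares (32.1 to 35.0%) and the lowest factors (0.848 to 0.911).

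Ncor1 itself (NM_011308) was lower in every DIEC DSS library. It stood at 1663, 1546, 1343 and 1602 in DIEC DSS and at 4078, 3709, 3689 and 3736 in F/F DSS colon, and it fell by 1.31 ± 0.07 (adjusted p = 1.3e-09). In bulk tissue, fewer cells of a type and less RNA per cell cannot be told apart, and reads of other cell types count toward the remaining Ncor1. Of the 12 genes of the corepressor complex 2 others were called, and both were higher. Tbl1xr1, a WD40 subunit that links the complex to transcription factors, was at 3061, 3397, 3774 and 3312 in DIEC DSS against 1813, 1891, 1925 and 2145 in F/F DSS colon (0.80 ± 0.08, adjusted p = 1.6e-06). Its relative Tbl1x was also higher (0.35 ± 0.10, adjusted p = 0.011). Hdac3 ran from 1619 to 1790 in DIEC DSS and from 1779 to 1978 in F/F DSS colon and was not called; its log2 change was -0.15 ± 0.06 as deposited and 0.04 after TMM.

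Sterol export genes were among the largest rises. Of 18 targets of the liver X receptors 7 were higher and 2 lower, beside 3.28% and 7.21% of all genes. Abcg1, which loads cholesterol onto lipoproteins, stood at 1509, 1784, 1350 and 1235 in DIEC DSS colon and at 237, 295, 253 and 294 in F/F DSS colon (2.44 ± 0.11, adjusted p = 6.7e-11). Abcg5, a subunit of the transporter that returns sterols to the lumen, was at 2202, 2152, 2078 and 2432 in DIEC DSS against 643, 314, 464 and 230 in F/F DSS colon (2.53 ± 0.29, adjusted p = 8.2e-05). Both genes had no overlap between groups, and Abcg8, its partner subunit, rose by 1.48 ± 0.21 (adjusted p = 0.00014). Abca1, which hands cholesterol to apolipoprotein A-I, was at 1202, 1353, 1157 and 973 in DIEC DSS and at 592, 559, 584 and 650 in F/F DSS colon (0.97 ± 0.12, adjusted p = 2.5e-05). Lpcat3, which puts polyunsaturated chains into phospholipids, rose by 0.71 ± 0.08 (adjusted p = 1e-05), and Scd1, the stearoyl-CoA desaturase, rose by 1.03 ± 0.25 (adjusted p = 0.0077). The receptor gene Nr1h3 (liver X receptor alpha) went the other way, at 493, 560, 426 and 502 in DIEC DSS against 778, 836, 711 and 789 in F/F DSS colon (-0.66 ± 0.11, adjusted p = 0.00027). Mylip, a target that marks the LDL receptor for decay, was not called: it stood at 762 to 1140 in DIEC DSS and 910 to 1179 in F/F DSS colon, and its sign differed between scalings.

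The Abca1 promoter is shown because its response element for liver X receptors is well described. Below are the 250 bases before its start (RefSeq, GRCm38.p6, chr4:53159896-53160145, minus strand), with capitals on the match to GGTNA, 5 further bases and GGTNA again, a direct repeat whose hexamers lie 4 bases apart, which begins at -67 and lies in the reverse orientation.
Abca1: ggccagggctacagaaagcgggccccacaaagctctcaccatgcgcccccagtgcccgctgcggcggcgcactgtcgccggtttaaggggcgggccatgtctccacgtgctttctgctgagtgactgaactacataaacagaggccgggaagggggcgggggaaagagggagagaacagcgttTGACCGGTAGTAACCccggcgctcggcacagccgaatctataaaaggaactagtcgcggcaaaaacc
On either strand and over 250 bases before to 50 after the start, that repeat was in 0.665% of 451 promoters of genes called higher, 0.403% of 993 called lower and 0.544% of all 13413 tested genes in the promoter table. The same repeat was not found in these windows of Abcg5, Abcg8 or Lpcat3. A direct repeat of AGGNCA with 1 base between was in 1.11% of promoters of genes called higher, 0.201% of those called lower and 0.336% of those tested. In the same order, these shares are 5, 2 and 45 promoters, and those of the repeat with 4 bases between are 3, 4 and 73. The single half-site AGGTCA, which both repeats can contain, was in 20.4% of promoters of genes called higher, 12.0% of those called lower and 13.2% of those tested. A match is a description of letters and does not show binding.

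Part of the fatty acid oxidation genes were higher. Of 27 such genes 13 were higher and 1 lower, with a median log2 change of 0.23 beside -0.20 over all genes, and after TMM alone the counts were 16 and 1. On the deposited scale 4 were lower, beside 26% of all genes, and without F/F DSS 3, 9 were higher. Slc25a20, the carrier that takes acylcarnitines into mitochondria, stood at 13711, 14129, 14249 and 12308 in DIEC DSS against 7241, 7316, 5926 and 6176 in F/F DSS colon (1.03 ± 0.10, adjusted p = 1.6e-06). Acadl, the long-chain acyl-CoA dehydrogenase, was at 11103, 12513, 11184 and 11162 in DIEC DSS against 6415, 6991, 5799 and 6055 in F/F DSS colon (0.87 ± 0.09, adjusted p = 3.3e-06). Cpt2, a carnitine acyltransferase inside mitochondria, and the thioesterase Acot2 rose by 0.44 ± 0.08 and 0.83 ± 0.15. Cpt1a, the outer gate of the pathway, was not called as deposited (0.27 ± 0.11, adjusted p = 0.073) and was higher after TMM (0.46, adjusted p = 0.01). Eci1, an enoyl-CoA isomerase, was the member called lower (-0.51 ± 0.07, adjusted p = 9.5e-05). Of 25 genes of oxidative phosphorylation limma called 0 as deposited, with 1 at an unadjusted p below 0.05, while 8 were higher after TMM, 8 by edgeR and 13 by DESeq2, and 4 after TMM without DIEC DSS 3. The count for that list differed with the scaling, the tool and that library.

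Among 25 genes of lipid handling and ketogenesis 4 were higher and 1 lower, with 0 lower after TMM without DIEC DSS 3. Creb3l3, a membrane-bound regulator of lipid genes, was at 199 to 304 in DIEC DSS against 23.2 to 126 in F/F DSS colon (1.88 ± 0.45, adjusted p = 0.0074). The lipid droplet coat Plin2 rose by 0.63 ± 0.12 and the pantetheinase Vnn1 by 1.02 ± 0.22. Pdk4 and Angptl4, common reporters of the peroxisome proliferator-activated receptors, were not called (0.32 ± 0.24 and 0.56 ± 0.34, adjusted p = 0.34 and 0.25). Among the receptor genes, Ppara fell by 0.74 ± 0.12 (adjusted p = 0.00023) and Ppard rose by 0.30 ± 0.08 (adjusted p = 0.0071). Pparg was also called on the deposited scale, and its values are not given here. Of 37 nuclear receptor genes tested 2 were higher and 3 lower, beside 3.28% and 7.21% of all genes. On the deposited scale 9 of them were lower, where 26% of all genes were.

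Lipid synthesis genes split. Of 18 lipogenesis genes 3 were higher and 4 lower. Elovl6, a fatty acid elongase, and Acacb, the mitochondrial acetyl-CoA carboxylase, rose by 0.68 ± 0.10 and 1.07 ± 0.16. Mlxipl, which encodes the carbohydrate-responsive factor ChREBP, stood at 290, 260, 205 and 269 in DIEC DSS against 540, 410, 603 and 673 in F/F DSS colon (-1.10 ± 0.13, adjusted p = 9.5e-06). Acss2 and Gpam, which feed acetate and glycerol into lipid synthesis, fell by 0.76 ± 0.10 and 0.79 ± 0.14. Srebf1, the sterol-responsive driver of lipogenesis, was not called (0.01 ± 0.14, adjusted p = 0.96).

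Calcium uptake genes that respond to vitamin D were higher: 4 of 7 vitamin D receptor targets tested rose and 0 fell by limma (0 lower at an unadjusted p below 0.05, by edgeR and by DESeq2). S100g, the calcium-binding protein calbindin-D9k, stood at 862, 4644, 941 and 1169 in DIEC DSS against 137, 371, 167 and 144 in F/F DSS colon (2.95 ± 0.56, adjusted p = 0.0023); replicate 2 was the highest library in both groups, and all DIEC DSS libraries lay above all F/F DSS libraries. Trpv6, the apical calcium channel, was at 909, 504, 471 and 1083 in DIEC DSS and at 265, 126, 191 and 261 in F/F DSS colon (1.78 ± 0.29, adjusted p = 0.0007). Atp2b1, the basolateral calcium pump, rose by 0.52 ± 0.08 (adjusted p = 0.00018). Slc30a10, a manganese exporter, rose by 0.88 ± 0.29 (adjusted p = 0.037), and its adjusted p ran up to 0.098 when single libraries were left out (DIEC DSS 1 or 4, or F/F DSS 1, 2 or 4). Vdr itself was not called, at 16256 to 21715 in DIEC DSS and 16080 to 24471 in F/F DSS colon, and its sign differed between scalings.

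The 250 bases before the S100g start are shown because S100g had the largest change of the calcium genes (RefSeq, GRCm38.p6, chrX:162964600-162964849, minus strand). Capitals mark the half-sites, AGGTCA or its reverse complement, which begin at -220 and -107.
S100g: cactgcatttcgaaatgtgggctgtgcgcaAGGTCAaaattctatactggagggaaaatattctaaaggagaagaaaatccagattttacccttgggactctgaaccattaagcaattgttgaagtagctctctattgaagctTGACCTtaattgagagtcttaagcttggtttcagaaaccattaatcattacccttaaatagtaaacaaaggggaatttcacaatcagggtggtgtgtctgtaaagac

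Sodium uptake genes rose in part. Of 16 sodium absorption genes 5 were higher and 0 lower by limma (0 lower at an unadjusted p below 0.05, by edgeR and by DESeq2). On the deposited scale 2 were called higher without DIEC DSS 2 or 3, or without F/F DSS 1 or 4. Sgk1, the kinase that keeps the epithelial sodium channel at the membrane, stood at 27824, 25226, 28091 and 24938 in DIEC DSS against 7526, 10884, 9861 and 11651 in F/F DSS colon (1.43 ± 0.14, adjusted p = 4e-06). Tsc22d3, another corticosteroid-induced gene, rose by 0.39 ± 0.09 (adjusted p = 0.0033). The channel subunits Scnn1b and Scnn1g rose by 0.61 ± 0.19 and 1.01 ± 0.31 (adjusted p = 0.027 each); without single libraries (DIEC DSS 2 or 3 or F/F DSS 1 or 4 for both, and DIEC DSS 1 for Scnn1g) their adjusted p reached 0.0863 and 0.0817.

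Clock genes moved in a subset, with 5 of 18 higher and 0 lower by limma (3 lower at an unadjusted p below 0.05, and 0 by edgeR and by DESeq2). Arntl (BMAL1), the core activator, stood at 1574, 1858, 1978 and 1647 in DIEC DSS and at 597, 906, 705 and 728 in F/F DSS colon (1.27 ± 0.16, adjusted p = 6.9e-05). Npas2, its partner, rose by 1.37 ± 0.18, and Nfil3, a repressor of the output genes, rose by 2.61 ± 0.41 (adjusted p = 0.00056). These 3 genes are known targets of REV-ERB repression; Nr1d1, which encodes REV-ERB alpha, was itself higher (0.89 ± 0.23, adjusted p = 0.012), with overlapping groups at 8241 to 12181 in DIEC DSS and 3623 to 9419 in F/F DSS colon. In a fit of the 8 DSS libraries alone Nr1d1 was not called (adjusted p = 0.087). Per1 was not called (-0.29 ± 0.16, adjusted p = 0.2). The time of day of sampling is not given in the labels used here.

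The largest rise of all that met the naming rule was Arg2, the mitochondrial arginase. It stood at 402, 740, 612 and 641 in DIEC DSS against 32.2, 45.9, 61.1 and 68.5 in F/F DSS colon (3.52 ± 0.24, adjusted p = 2.5e-07). Of 17 arginine and polyamine genes it was the 1 called higher, and 2 were lower, beside 3.28% and 7.21% of all genes. Among the lower was Ass1, which makes argininosuccinate (-0.67 ± 0.13, adjusted p = 0.00094). Nos2, which competes with arginases for arginine, was not called, at 395 to 2353 in DIEC DSS and 448 to 620 in F/F DSS colon. Otc, the urea cycle transferase, was at 14.0 to 20.6 in DIEC DSS against 42.0 to 91.3 in F/F DSS colon (-1.97 ± 0.21, adjusted p = 4.9e-06). The amino acid transporter Slc7a9 rose by 2.31 ± 0.40, the intestinal homeobox factor Isx by 2.29 ± 0.40 and the lysolipid transporter Mfsd2a by 2.24 ± 0.44. Tex19.1 and Wfdc18 were also among the 15 largest rises (3.36 ± 0.69 and 2.59 ± 0.41), as was Clca4b (3.27 ± 0.59), whose reads may be shared with its near copy Clca4a.

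**Figure D2:**
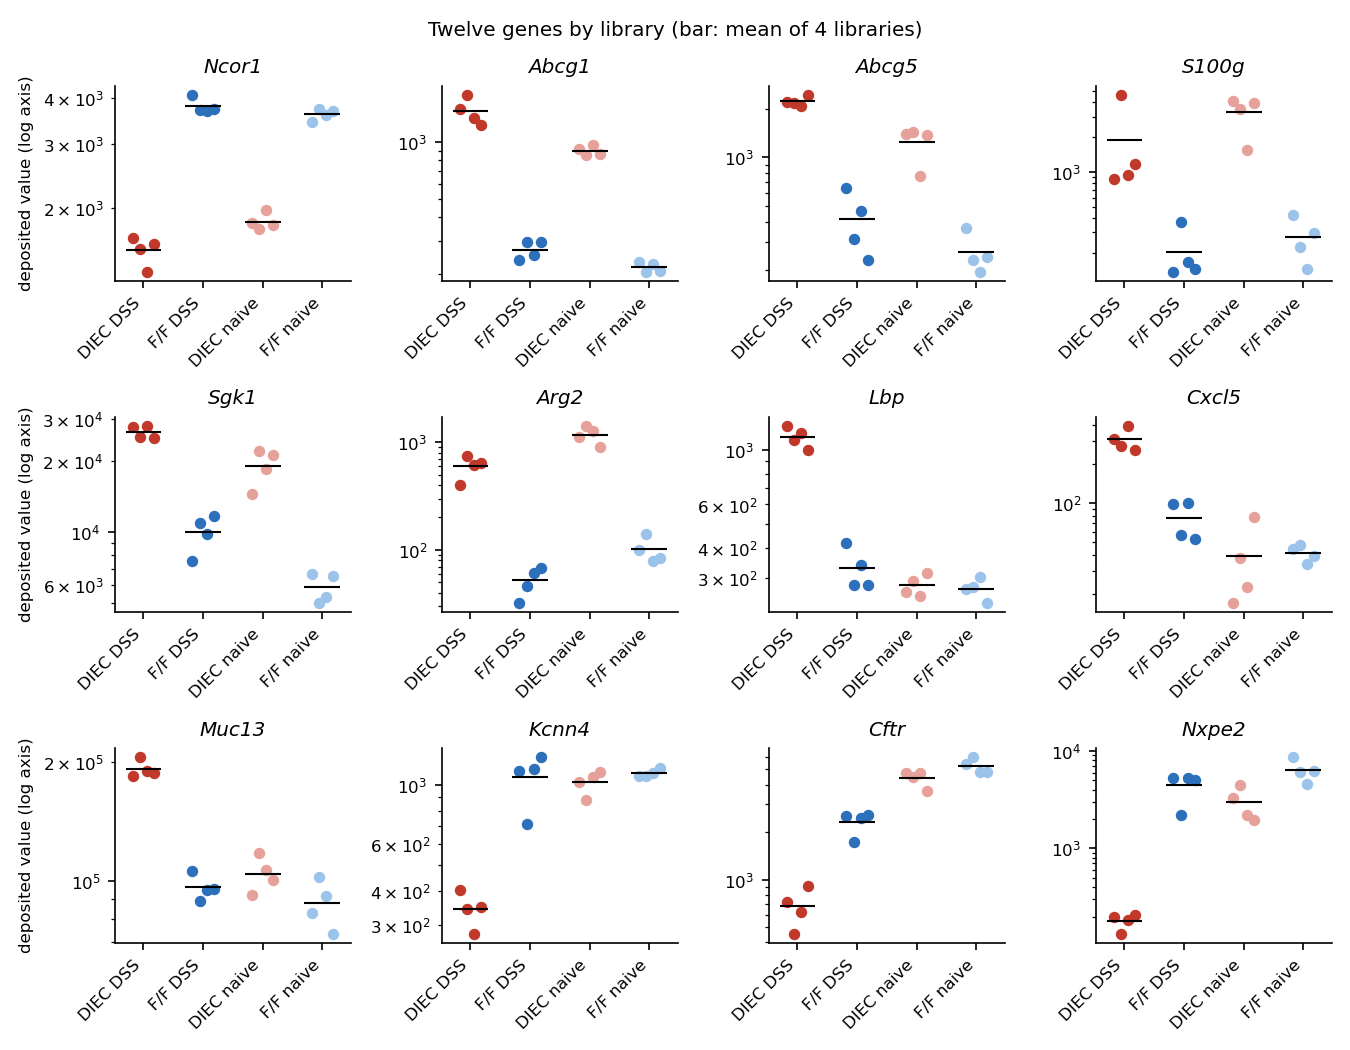
Deposited values of 12 genes in each library on a log axis, with the 4 groups from left to right as DIEC DSS, F/F DSS, DIEC naive and F/F naive and a bar at the mean of 4 libraries. Ncor1 is lower in all DIEC libraries; Abcg1, Abcg5, S100g, Sgk1 and Arg2 are higher in DIEC with and without DSS; Lbp and Cxcl5 stand high in DIEC DSS, and Kcnn4, Cftr and Nxpe2 stand lowest there.

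Surface and secretory epithelial genes were higher in part. Of 21 absorptive colonocyte markers 7 were higher and 1 lower; without F/F DSS 1, 4 were called higher on the deposited scale. Car4, a carbonic anhydrase of the brush border, stood at 72726, 123170, 111791 and 97914 in DIEC DSS and at 45806, 60599, 59041 and 65020 in F/F DSS colon (0.80 ± 0.16, adjusted p = 0.0014). Car1 and Lypd8 rose by 0.61 ± 0.15 and 0.47 ± 0.13, although Lypd8 had an adjusted p of 0.054 without F/F DSS 1. Ceacam20, a microvillus protein, rose by 0.70 ± 0.11 (adjusted p = 0.00016). Aqp4, a water channel, was the marker that fell (-1.21 ± 0.22, adjusted p = 0.0011).

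Of 19 goblet cell and mucus genes 5 were higher and 1 lower, with 0 lower after TMM without DIEC DSS 3. Muc13, a membrane mucin, stood at 184164, 206081, 189236 and 187850 in DIEC DSS against 106123, 89292, 94891 and 95491 in F/F DSS colon (0.99 ± 0.10, adjusted p = 3.3e-06). Zg16, a lectin of the mucus layer, rose by 0.73 ± 0.14, and Tff3, the trefoil peptide, by 0.84 ± 0.22. Muc2, the main secreted mucin, was not called (0.20 ± 0.30, adjusted p = 0.66). Of 18 enteroendocrine genes 4 were higher and 1 lower, and without DIEC DSS 4, 2 were called higher. Gcg, the precursor of glucagon-like peptides, was at 2426, 2644, 2226 and 2792 in DIEC DSS and at 1233, 1320, 1276 and 1441 in F/F DSS colon (0.93 ± 0.09, adjusted p = 1.9e-06), and Pyy rose by 0.59 ± 0.10. Neurog3, which starts the endocrine lineage, was near the limit of detection, with 3 reads over the DIEC DSS and 26 over the F/F DSS libraries, a ratio per read of 0.128 (exact 95% interval 0.0248 to 0.418, counting error only).

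Claudins changed in both directions. Of 22 junction genes 5 were higher and 2 lower; 12 were higher after TMM, and 7 after TMM without DIEC DSS 3. Cldn8, a sealing claudin, stood at 9218, 10124, 9865 and 12764 in DIEC DSS against 4736, 4337, 3934 and 3018 in F/F DSS colon (1.40 ± 0.14, adjusted p = 7.7e-06). Cldn4 and Cldn3 rose by 0.77 ± 0.19 and 0.45 ± 0.11. Cldn2, which forms a channel for sodium and water and is found in crypts, was at 428, 265, 347 and 428 in DIEC DSS and at 1581, 687, 1437 and 3412 in F/F DSS colon (-2.07 ± 0.35, adjusted p = 0.001). Cldn15, another pore-forming claudin, fell by 1.59 ± 0.22 (adjusted p = 0.0002).

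Secretory channels were lower. Of 21 solute transport genes 4 were higher and 7 lower. Cftr, the chloride channel of crypt cells, stood at 725, 453, 627 and 910 in DIEC DSS against 2512, 1727, 2450 and 2551 in F/F DSS colon (-1.79 ± 0.18, adjusted p = 1.2e-05). Kcnn4, the basolateral potassium channel that supports chloride secretion, was at 403, 342, 277 and 350 in DIEC DSS and at 1125, 713, 1143 and 1269 in F/F DSS colon (-1.61 ± 0.14, adjusted p = 1.3e-06). Kcnq1, a second such channel, fell by 0.88 ± 0.09 (adjusted p = 4e-06). Slc4a4, a bicarbonate cotransporter, and Slc34a2, a phosphate transporter, rose by 1.06 ± 0.18 and 1.43 ± 0.31.

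Some crypt genes were lower, with a wide spread among F/F DSS libraries. Of 20 crypt stem and Wnt genes 0 were higher and 5 lower by limma (1 higher at an unadjusted p below 0.05, 0 by edgeR and 1 by DESeq2). After TMM, 2 were lower without DIEC DSS 3 and 8 without the replicates 2 of both groups. Axin2, a direct Wnt target, stood at 98.0, 71.8, 78.9 and 51.4 in DIEC DSS against 253, 114, 192 and 368 in F/F DSS colon (-1.53 ± 0.27, adjusted p = 0.00094). Ascl2, the crypt stem cell factor, was at 1.16 to 5.61 in DIEC DSS and at 6.12 to 79.9 in F/F DSS colon (-2.23 ± 0.57, adjusted p = 0.009), and after TMM without DIEC DSS 3 its adjusted p was 0.068. Lgr5 was not called: it was at 6.25, 2.63, 9.28 and 12.2 in DIEC DSS and at 30.2, 4.59, 21.3 and 93.2 in F/F DSS colon (adjusted p = 0.07). F/F DSS 2 had the lowest and F/F DSS 4 the highest value of the F/F DSS group for each of these 3 genes.

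Proliferation genes showed the same order of F/F DSS libraries, and their count depended on single libraries. On the deposited scale 17 of 24 were lower and 0 higher (0 also at an unadjusted p below 0.05, by edgeR and by DESeq2), beside 26% of all genes lower on that scale. After TMM 4 were lower, and on recovered reads 7 were lower by edgeR and 16 by DESeq2. The count on the deposited scale was 4 without F/F DSS 4 and 5 without DIEC DSS 3, and after TMM it was 1 without DIEC DSS 3 and 16 without the replicates 2 of both groups. The summed level of the 24 genes was 4155, 5209, 3665 and 4246 in DIEC DSS and 9161, 4924, 7775 and 12953 in F/F DSS colon, so that F/F DSS 2 lay within the DIEC DSS range. Tyms, which makes thymidylate, was called under both scalings (-0.70 ± 0.13, adjusted p = 0.00063). Mki67, the marker of cycling cells, was at 404, 530, 277 and 428 in DIEC DSS against 1659, 494, 853 and 1708 in F/F DSS colon, and was called as deposited (adjusted p = 0.023) but not after TMM (adjusted p = 0.07).

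Several neutrophil chemokines were higher, at low levels. Of 18 genes for neutrophil attraction and products 7 were higher and 0 lower by limma, 4 higher and 0 lower by edgeR and 5 higher and 0 lower by DESeq2; 1 was lower at an unadjusted p below 0.05. After TMM without the replicates 2 of both groups 5 were higher. Cxcl5, which the epithelium makes, stood at 314, 274, 393 and 258 in DIEC DSS and at 98.7, 57.3, 100 and 53.3 in F/F DSS colon (2.03 ± 0.35, adjusted p = 0.0007). Cxcl1 was at 41.7, 59.5, 58.0 and 73.9 in DIEC DSS against 12.1, 9.94, 24.8 and 17.1 in F/F DSS colon (1.85 ± 0.26, adjusted p = 7.7e-05). Cxcl2 had 139 reads over the DIEC DSS and 10 over the F/F DSS libraries, with 0 in F/F DSS 2. S100a8 and S100a9, which neutrophils and stressed epithelium make, were at 9.28 to 29.8 and 8.41 to 44.6 in DIEC DSS against 1.90 to 7.05 and 1.53 to 6.20 in F/F DSS colon. Neutrophil granule genes were at or near 0 in both groups: Elane had 0 reads in all 8 libraries, Mpo stood at 0 to 1.16 in DIEC DSS and 0.95 to 5.04 in F/F DSS colon, and Retnlg at 0 to 4.38 in DIEC DSS and 0 in F/F DSS colon. Ly6g was far above them, at 19612, 29311, 25748 and 20241 in DIEC DSS against 6273, 10331, 8071 and 8138 in F/F DSS colon (1.53 ± 0.21, adjusted p = 0.00023); it belongs to a family of similar genes, and a share of reads from near copies was not tested.

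Other defence genes were higher in part. Of 23 antimicrobial defence genes 6 were higher and 1 lower, beside 3.28% and 7.21% of all genes. By edgeR and by DESeq2 4 of them were higher. That list shares S100a8 and S100a9 with the list of neutrophil genes. Lbp, the binding protein of lipopolysaccharide, stood at 1258, 1101, 1178 and 1004 in DIEC DSS and at 418, 282, 339 and 281 in F/F DSS colon (1.79 ± 0.12, adjusted p = 4e-08). Of 30 cytokine genes 2 were higher and 0 lower, beside 3.28% and 7.21% of all genes. Il18 rose by 0.96 ± 0.11 (adjusted p = 8.7e-06). Tnf, at 148, 308, 129 and 174 in DIEC DSS against 97.7, 109, 121 and 101 in F/F DSS colon, rose by 0.74 ± 0.21 (adjusted p = 0.013). For that count of 0 lower, 2 members were lower at an unadjusted p below 0.05 and 0 by edgeR and by DESeq2. Of 18 genes of NF-kB feedback 5 were higher, including Bcl3 (1.04 ± 0.12), Nfkbiz (0.79 ± 0.13) and Socs3 (1.10 ± 0.24). Of 15 genes of the epidermal growth factor receptor system 7 were higher and 1 lower, with 0 lower after TMM without DIEC DSS 3. On the deposited scale 5 were called higher without DIEC DSS 1, 3 or 4, or without F/F DSS 2 or 3. The ligand Areg was at 2301, 2604, 1999 and 4405 in DIEC DSS and at 655, 1201, 1285 and 1106 in F/F DSS colon (1.39 ± 0.24, adjusted p = 0.001). Ereg, Hbegf and Btc rose by 1.03 ± 0.22, 1.03 ± 0.24 and 0.44 ± 0.11. Areg, Ereg and Hbegf were highest in DIEC DSS 4, where 12 immediate early genes also had their highest sum, with 29088, 37685, 28199 and 48996 in DIEC DSS and 25430, 31253, 24305 and 22431 in F/F DSS colon. Of those 12 genes 4 were higher (Fosb, Jun, Junb and Zfp36), and 2 on the deposited scale without DIEC DSS 4, F/F DSS 3 or F/F DSS 4; their part in the ligand values was not tested. Of 19 cell death genes 5 were higher and 2 lower, with Gsdmd, the pore of pyroptosis, at 0.62 ± 0.09 and Casp8 at 0.50 ± 0.10. Of 16 antioxidant genes 0 were higher by limma (1 at an unadjusted p below 0.05, 1 by edgeR and 3 by DESeq2) and 3 were lower, Gstm1, Gsta3 and Nqo1 (-1.28 ± 0.15, -1.46 ± 0.23 and -0.94 ± 0.19).

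The largest falls included genes of glycans and crypts. Nxpe2, of a family abundant in colon, stood at 198, 133, 182 and 206 in DIEC DSS against 5253, 2216, 5268 and 5066 in F/F DSS colon (-4.56 ± 0.33, adjusted p = 2.3e-06). A4gnt, which caps gastric-type mucin sugars, and Cyp2w1, a cytochrome P450 of the colon, had 5 and 7 reads over the DIEC DSS against 232 and 218 over the F/F DSS libraries. Reg4, a secreted lectin of deep crypt cells, was at 788, 363, 740 and 815 in DIEC DSS and at 3965, 1696, 4814 and 7731 in F/F DSS colon (-2.62 ± 0.42, adjusted p = 0.00082). Nox1, the epithelial NADPH oxidase, was at 17.5 to 40.6 in DIEC DSS and 51.2 to 439 in F/F DSS colon (-2.48 ± 0.49, adjusted p = 0.0028). Pkp1, Fut9, Etv4, Hmga2, Pak6, Esr2, Dnah8 and H2-T3 fell by 1.99 to 2.68.

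**Figure D3:**
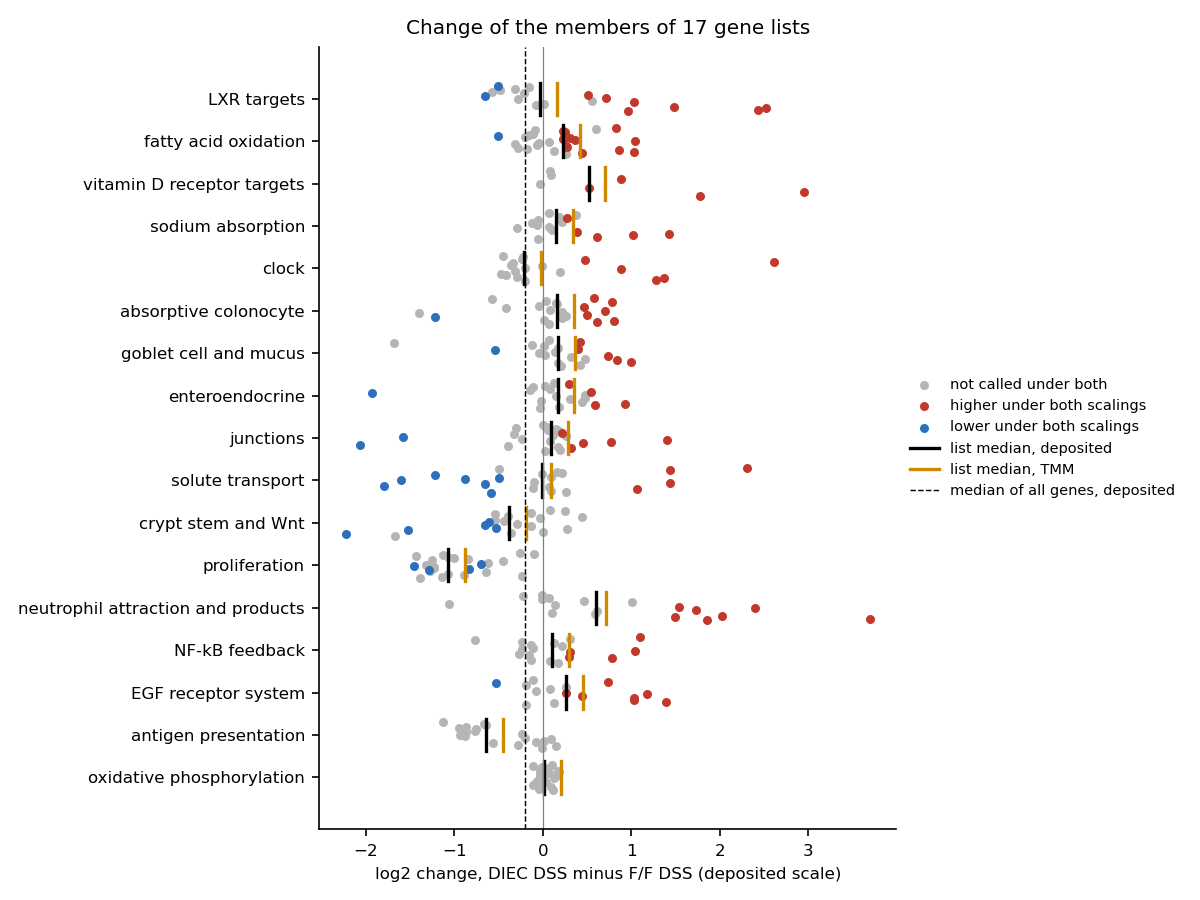
Log2 change between DIEC DSS and F/F DSS colon on the deposited scale for the members of 17 gene lists, a point per gene, coloured where called under both scalings. Bars give each list's median under each scaling and the dashed line the median of all genes (-0.20). The median of vitamin D receptor targets (0.52) lies to the right of that line and that of proliferation genes (-1.07) to its left.

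Markers of other cell types were compared over the same libraries. Colon identity held in all 8: Car1, Slc26a3, Muc2 and Hoxd13 were each at 2411 or more in every library. Of 18 macrophage and monocyte markers 1 was higher and 0 lower under both scalings by limma (6 lower at an unadjusted p below 0.05, and 0 by edgeR and by DESeq2), and 4 of 18 were lower on the deposited scale, where 26% of all genes were, or 1 without DIEC DSS 3 or 4. Their summed level was 8357 to 14370 in DIEC DSS and 14293 to 15444 in F/F DSS colon, with 0 of 18 members at 0 throughout a group. B and plasma cell markers summed to 7764 to 17159 in DIEC DSS and 13700 to 19743 in F/F DSS colon, and T and NK cell markers to 341 to 1630 in DIEC DSS and 816 to 1333 in F/F DSS colon. In each of these 3 lists the lowest sum was in DIEC DSS 3, and in both lymphocyte lists the highest DIEC DSS sum was in DIEC DSS 2. Smooth muscle markers summed to 257814 to 319304 in DIEC DSS and 260536 to 326109 in F/F DSS colon, with 0 of 11 called (limma; 0 at an unadjusted p below 0.05, and 1 higher by edgeR and by DESeq2). Of 19 antigen presentation genes 0 were called by limma, at an unadjusted p below 0.05, by edgeR and by DESeq2, and without DIEC DSS 2, 4 were lower on the deposited scale, where 26% of all genes were; after TMM without the replicates 2 of both groups 2 were higher. Of 20 type I interferon genes 0 were called under both scalings, and 2 were lower on the deposited scale, where 26% of all genes were. Without DIEC DSS 2, 7 were lower on that scale, where 3969 of all 18267 genes were. Without F/F DSS 2, 1 was higher on that scale. Irf7, the master regulator of these genes, was at 3777, 9831, 2860 and 4093 in DIEC DSS and at 5612, 12833, 5738 and 6026 in F/F DSS colon. It was highest in replicate 2 of both groups and not called (adjusted p = 0.3). The part that cell composition, depth or these libraries have in the gene results was not tested, apart from the counts given without them.

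**Figure D4:**
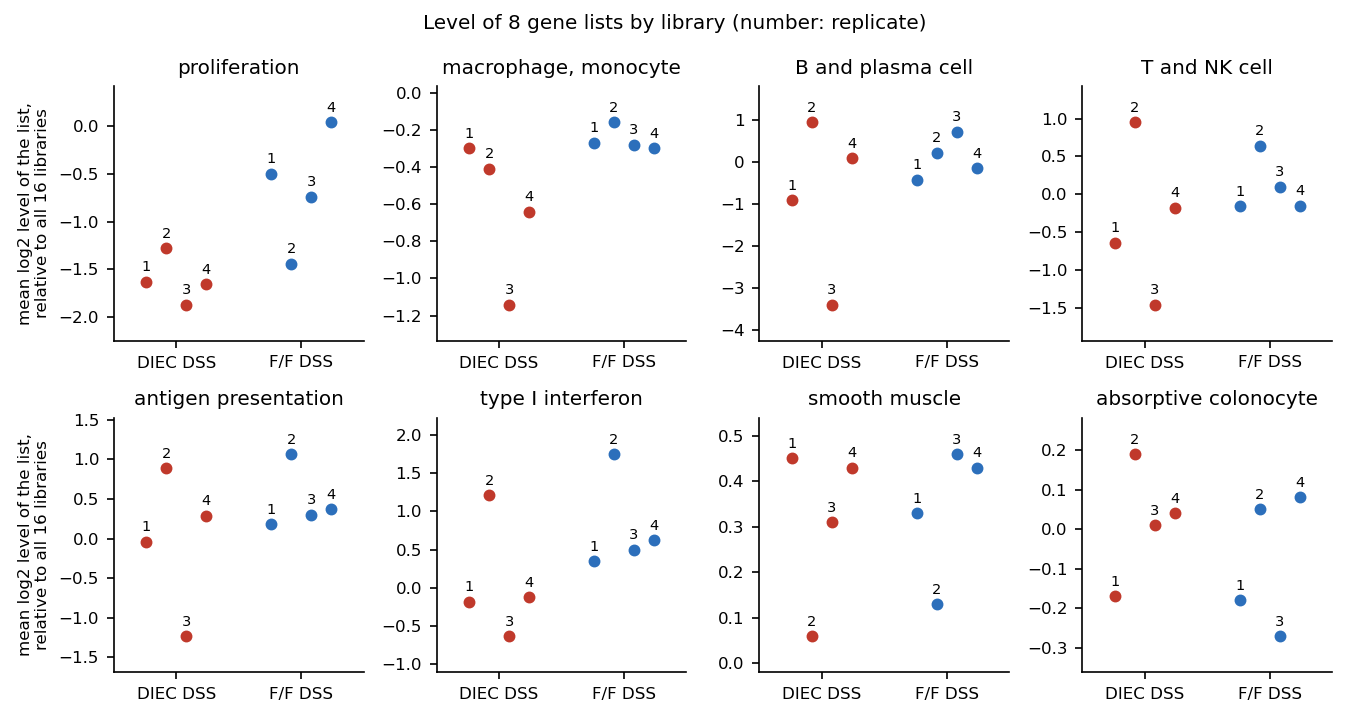
Mean log2 level of 8 gene lists in each DSS library, relative to the mean of all 16 libraries, with the replicate number at each point. DIEC DSS 3 is lowest for the immune lists, and F/F DSS 2 is the lowest F/F DSS library for proliferation.

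The same deletion without DSS was compared in libraries that share none with the DSS comparison. Between DIEC naive and F/F naive colon 258 genes were higher (1.41%) and 150 lower (0.821%) on the deposited scale, and after TMM 1.74% were higher and 0.673% lower. The median log2 change was -0.05. Of the 599 genes higher with DSS, 176 (29.4%) were also called higher without it, which is 68.2% of the genes higher without DSS. Of the 1317 lower with DSS, 73 (5.54%) were also called lower without it, 48.7% of the genes lower without DSS. Only 2 of the 599 and 0 of the 1317 were called in the opposite direction by limma. The median log2 changes of the 599 genes were 0.56 with DSS, which the choice of genes fixes, and 0.30 without it; those of the 1317 genes were -0.66 and -0.13.

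Several genes that were higher with DSS were also higher in DIEC colon without it. Abcg1 averaged 899 in DIEC naive and 218 in F/F naive colon (2.04, adjusted p = 1.7e-09), Arg2 1176 and 101 (3.54, adjusted p = 4.7e-07), S100g 3281 and 272 (3.60, adjusted p = 0.0044) and Sgk1 18997 and 5880 (1.68, adjusted p = 2.6e-06). The difference of these 4 effects with and without DSS was not called (adjusted p = 0.14, 0.98, 0.69 and 0.49), which does not show that the effects are equal. Of 27 fatty acid oxidation genes 14 were higher without DSS, and of 18 liver X receptor targets 6.

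A difference in the deletion effect was called for 53 genes in the higher and 611 in the lower direction on the deposited scale (0.29% and 3.34%), and for 44 and 72 after TMM (0.241% and 0.394%). Under both scalings the counts were 39 and 72. The count of 611 ran from 172 to 1584 when single DSS libraries were left out: it was 172 without DIEC DSS 2, 179 without F/F DSS 1, 173 without F/F DSS 4, 206 without F/F DSS 3, 361 and 367 without DIEC DSS 3 and 4, 917 without DIEC DSS 1 and 1584 without F/F DSS 2. The count of 53 was 28 without DIEC DSS 2, 26 without F/F DSS 1 and 27 without F/F DSS 4. Among genes called with DSS on the deposited scale, with predicted genes and clone names passed over, Lbp had the smallest adjusted p. It was 281 in DIEC naive and 272 in F/F naive colon, and its deletion effect was 1.75 larger with DSS (adjusted p = 0.00011). Cxcl1, Cxcl2, Cxcl5, Tnf and Socs3 also had a larger effect with DSS (differences of 2.19, 4.36, 2.34, 1.44 and 1.68, adjusted p of 0.0065 to 0.024). Prdm1, a regulator of lymphocyte and epithelial maturation, was at 246, 249, 262 and 267 in DIEC DSS against 145, 146, 170 and 136 in F/F DSS colon, while without DSS it averaged 188 in DIEC and 251 in F/F colon (difference 1.19, adjusted p = 0.00074).

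Most of the differences called under both scalings were falls with DSS. Kcnn4 averaged 1022 in DIEC naive and 1106 in F/F naive colon, and its effect with DSS was lower by 1.49 (adjusted p = 0.0015). Cftr and Kcnq1 differed in the same direction (-1.53 and -0.68, adjusted p = 0.0094 and 0.014), as did Mlxipl (-1.27, adjusted p = 0.0015) and Ppara (-0.88, adjusted p = 0.011). Htr4, a serotonin receptor, was at 182, 140, 218 and 194 in DIEC DSS against 738, 609, 627 and 837 in F/F DSS colon, and the difference was -1.50 (adjusted p = 0.00069). Plch2, Ces1e, Adck3, Baiap2l2 and St6galnac2 completed the 10 smallest adjusted p values among the named genes called with DSS, at -1.23, -2.10, -1.29, -1.06 and -0.95. Cldn2 averaged 5239 in DIEC naive and 4884 in F/F naive colon; its difference was called as deposited (-2.18, adjusted p = 0.037) and not after TMM (adjusted p = 0.075). The 4 naive DIEC and 4 naive F/F libraries held uneven amounts of pancreatic acinar genes, with sums of 17465 to 547475 in DIEC naive and 11307 to 112638 in F/F naive colon but 7732 to 11281 in DIEC DSS and 10470 to 13846 in F/F DSS colon; their part in the naive comparison was not tested.

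**Figure D5:**
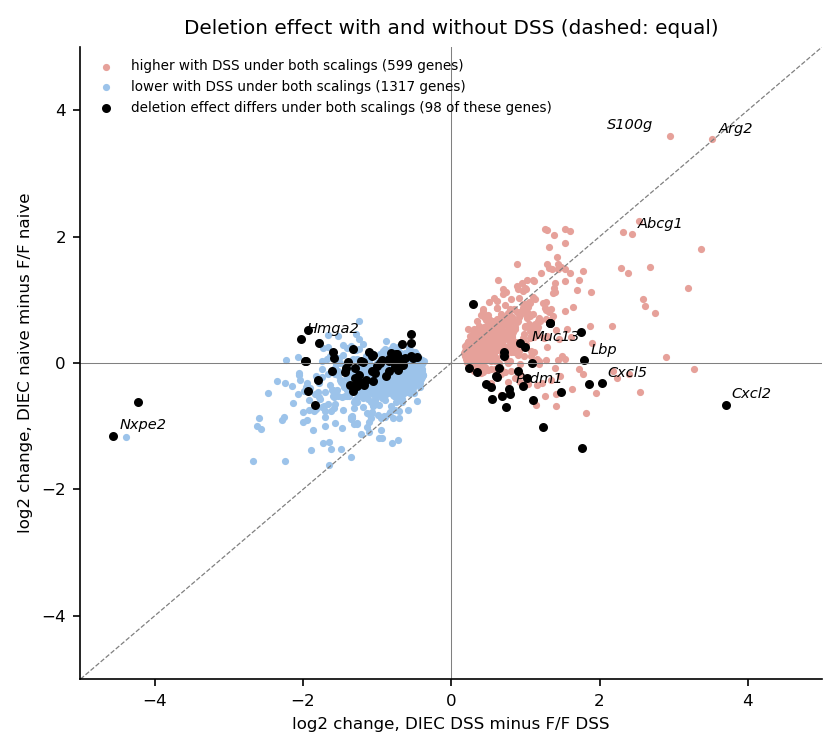
Log2 change with the deletion in DSS colon (x axis) and in naive colon (y axis) for the genes called under both scalings with DSS, 599 higher and 1317 lower. Black points are the 98 of these genes whose deletion effect differed under both scalings, and the dashed line marks equal effects; S100g, Arg2 and Abcg1 lie near it, and Lbp, Cxcl2, Cxcl5 and Nxpe2 lie away from it.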

How the data were processed

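Whole colon RNA was sequenced in 16 libraries. Per the labels' protocols the kit was Illumina TruSeq RNA, whose standard form leaves strand unmarked, whereas the file header sets a strand option, so genes that overlap on opposite strands are uncertain. The submitters' processing notes list bcl2fastq, STAR 2.2.0c and HOMER 4.9 and the build mm10; per the file headers HOMER counted reads over exons of mm9 gene models. Each deposited signal value equals a gene's read number after the authors' division by 1 factor per library. Within a tolerance of 0.01, 100% of values were whole multiples of the worth of 1 read, which gave the reads back; in F/F DSS 1 that worth is 1.007, and recovery there rests on high values. The authors' deposited table of pairwise comparisons gives log2 fold changes and p-values, and the sources used here do not name its tool.

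The values are scaled, so the main test was limma 3.58.1 (R 4.3.3, eBayes with trend and robust) on log2(value + 1), which understates changes of low genes. Of 24421 genes, 18267 reached a value of 1 in 4 or more libraries and were tested. All 16 libraries entered 1 model with a mean per group. Adjusted p values are Benjamini-Hochberg over all genes tested and come from limma unless another tool is named. Reads on genes numbered 22883415 to 34733832 per DSS library. Read intervals reflect counting error alone, because duplicated molecules cannot be recognised in these libraries. Alternatives used TMM (edgeR 4.0.16), DESeq2 1.42.0 size factors, count tests on recovered reads (edgeR, DESeq2 and limma voom; 15695 genes), other pseudocounts and filters, a replicate block and single libraries left out. The scripts were tested on simulated data: changes of a factor of 2 or more were nearly all recovered, smaller ones often were not, and the share of false calls lay somewhat above the nominal level.

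The comparison, with its members, and the 49 gene lists were chosen with earlier results of these data known; within it the labels alone put each library in its group. Ncor1 was named first; then the 15 largest rises and falls among called genes without overlap between groups and with a mean of at least 50 in the higher group, passing over predicted genes, clone names (here also the expressed sequence BB123696), small RNAs and antigen receptor segments; then up to 6 members per list with at least 2 called, and uncalled members that a sentence needs; then the 10 smallest adjusted p in the difference of effects. Some genes of the rule are left out for length. Promoters are RefSeq sequences on GRCm38.p6. Results of some genes are not reported here.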

Additional observations from a re-analysis of the deposited data

Results flagged for a closer look

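In 19 of 308 groups of 4 libraries of named genes, 1 library stood far from the others of its group; chance gives about 1 in 20. The library was high for Ncor1 at 4078 in F/F DSS 1 (the others 3689 to 3736), Smpd3 at 5236 in DIEC DSS 1 (the others 4506 to 4591), Acadl at 12513 in DIEC DSS 2 (the others 11103 to 11184), Plin2 at 12664 in DIEC DSS 2 (the others 9359 to 9824), S100g at 4644 in DIEC DSS 2 (the others 862 to 1169), S100g at 371 in F/F DSS 2 (the others 137 to 167). It was also high for Slc7a9 at 1767 in DIEC DSS 2 (the others 518 to 616), Lypd8 at 927120 in DIEC DSS 2 (the others 679043 to 720718), Cldn4 at 2897 in F/F DSS 3 (the others 1862 to 2024), Ascl2 at 79.9 in F/F DSS 4 (the others 6.12 to 18.1), S100a9 at 6.2 in F/F DSS 3 (the others 1.53 to 2.01), Hbegf at 2437 in DIEC DSS 4 (the others 1223 to 1429), Irf7 at 12833 in F/F DSS 2 (the others 5612 to 6026). It was low for Neurog3 at 0 in DIEC DSS 3 (the others 0.88 to 1.04), Reg4 at 363 in DIEC DSS 2 (the others 740 to 815), Cftr at 1727 in F/F DSS 2 (the others 2450 to 2551), Nxpe2 at 2216 in F/F DSS 2 (the others 5066 to 5268), Cxcl3 at 0 in F/F DSS 2 (the others 0.89 to 1.01), Hadha at 8552 in F/F DSS 4 (the others 8832 to 8859). 

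For 28 of 154 named genes the deletion effect with DSS differed from that without it under both scalings, by the interaction term of the limma model. Over all 18267 genes tested it differed for 111. Of the 28 genes, 10 were named because their adjusted p for this difference was smallest, so the count among named genes is raised by the naming rule. The effect with DSS minus that without (log2) was higher for Muc13 0.74, Gcg 0.62, Cxcl1 2.19, Cxcl2 4.36, Cxcl5 2.34, Lbp 1.75, Tnf 1.44, Socs3 1.68, Prdm1 1.19, Sprr2a1 0.70. It was lower for Mlxipl -1.27, Acss2 -0.75, Ppara -0.88, Otc -2.0, Neurog3 -2.45, Cftr -1.53, Kcnn4 -1.49, Kcnq1 -0.68, Gstm1 -1.01, Nxpe2 -3.41, Cyp2w1 -3.60, Hmga2 -2.41, Htr4 -1.50, Plch2 -1.23, Ces1e -2.10, Adck3 -1.29, Baiap2l2 -1.06, St6galnac2 -0.95. Neurog3 had only 3 reads over the DIEC DSS libraries, and Sprr2a1 has near copies among the Sprr2a genes that may share its reads.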

How the results depend on the processing

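On the deposited scale the counts of 599 higher and 4747 lower genes were 597 and 4751 with a pseudocount of 0.5, 600 and 4702 with 5, 602 and 4657 with no filter, 598 and 4890 with a minimum of 10, 493 and 3548 in the 8 DSS libraries alone, 612 and 4609 scaled without Rn45s, and 489 to 617 and 3535 to 5229 with single libraries left out. Other scalings and tools moved them: 1192 and 1317 (TMM), 1297 and 1246 (DESeq2 size factors), 1311 and 1287 (upper quartile), 1305 and 1342 (edgeR), 1578 and 1493 (DESeq2), 1281 and 1218 (voom), 953 and 1116 (TMM without DIEC DSS 3), 1185 and 1410 (TMM without both replicates 2), and 1345 and 1441 (TMM with the replicate block). Scaling without the 200 most abundant genes left 2705 lower, and a fold of at least 1.5 left 287 higher and 1255 lower. Rescaling by construction shifts all genes of a library together; other causes were not tested.

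The counts of 53 and 611 genes whose deletion effect differed were 26 to 77 and 172 to 1584 with single libraries left out. The lower count was 72 (TMM), 66 (DESeq2 size factors), 53 (upper quartile), 74 (edgeR), 64 (voom), 89 (scaled without the 200 most abundant genes), 85 (TMM without DIEC DSS 3) and 115 (TMM without both replicates 2). DESeq2 gave 232 and 278.

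Samples of the 2 genotypes share replicate numbers that the labels do not explain. Same-numbered DSS libraries deviated from their group means with correlations of 0.232, 0.212, -0.148 and 0.036, so the numbers were not taken as pairs. With the replicate block 645 genes were higher and 5220 lower, 110 and 1137 genes differed in their deletion effect, and with TMM and the block 125 and 143 did; Scnn1g lost its call under the block.

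Of 154 genes followed, 140 were called; 114 kept their call in all 25 alternatives and 0 called genes changed sign. Of the 14 not called, 7 changed sign in some alternative, with these log2 changes. Hdac3 0.0401 (TMM rescaling), 0.051 (DESeq2 size factors), 0.043 (upper quartile rescaling), 0.046 (edgeR on recovered reads), 0.053 (DESeq2 on recovered reads), 0.046 (limma voom on recovered reads), 0.048 (TMM rescaling without DIEC DSS 3), 0.036 (TMM rescaling without both replicates 2), 0.0401 (TMM rescaling with replicate block). Srebf1 -0.0029 (without DIEC DSS 3), -0.022 (without F/F DSS 1), -0.075 (without F/F DSS 2). Mylip 0.11 (TMM rescaling), 0.12 (DESeq2 size factors), 0.12 (upper quartile rescaling), 0.13 (edgeR on recovered reads), 0.14 (DESeq2 on recovered reads), 0.12 (limma voom on recovered reads), 0.042 (without DIEC DSS 4), 0.015 (scaling without the 200 most abundant genes), 0.079 (TMM rescaling without DIEC DSS 3), 0.075 (TMM rescaling without both replicates 2), 0.11 (TMM rescaling with replicate block). Vdr 0.16 (TMM rescaling), 0.17 (DESeq2 size factors), 0.16 (upper quartile rescaling), 0.15 (edgeR on recovered reads), 0.16 (DESeq2 on recovered reads), 0.17 (limma voom on recovered reads), 0.027 (without DIEC DSS 4), 0.10 (without F/F DSS 2), 0.061 (scaling without the 200 most abundant genes), 0.17 (TMM rescaling without DIEC DSS 3), 0.22 (TMM rescaling without both replicates 2), 0.16 (TMM rescaling with replicate block). Per1 0.0024 (TMM rescaling without both replicates 2). Hoxd13 0.024 (TMM rescaling), 0.035 (DESeq2 size factors), 0.027 (upper quartile rescaling), 0.029 (edgeR on recovered reads), 0.035 (DESeq2 on recovered reads), 0.031 (limma voom on recovered reads), 0.036 (TMM rescaling without both replicates 2), 0.024 (TMM rescaling with replicate block). Slc26a3 -0.0099 (without F/F DSS 1). With single libraries left out, Mylip ran from -0.15 to 0.042, Vdr from -0.11 to 0.0953, Slc26a3 from -0.0099 to 0.20 and Srebf1 from -0.075 to 0.10. The alternatives without Rn45s, without the 200 most abundant genes, and TMM combined with left-out libraries or the block were chosen after seeing the data. Low genes such as Neurog3, Cxcl2 and Cxcl3 are limited by depth, at 3 to 139 reads over a group.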
